A study of Mus musculus with 2 samples.

Results

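The miR-26 family of the mouse consists of 3 miRNA genes, Mir26b, Mir26a-1 and Mir26a-2, each inside a gene for a small C-terminal domain phosphatase. They were taken by gene identifier from the 2202 miRNA genes counted in gastrocnemius muscle, and all 3 were found. The mice were 2 B6CASTF1/J males aged 25 days, with no treatment named in the labels. They form 1 group, with 1 library per mouse. The strain is a first-generation hybrid between C57BL/6 and wild-derived CAST mice. Separate males are named in the labels under a single donor identifier, and if that identifier stands for 1 animal, each SD below measures technical spread. There is no second condition, so the data describe how strongly each family member was detected and how far the libraries differed.

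A miRNA hairpin is cut in the nucleus and then in the cytoplasm into a 5p and a 3p arm, and the arm that is kept guides silencing of mRNAs that pair with its seed, bases 2 to 8. The miR-26 family is conserved among vertebrates and is expressed in many tissues. In mouse myoblasts miR-26a is known to repress Ezh2, a histone methyltransferase that holds muscle genes silent, and it has been tied to myogenic differentiation. The host genes encode phosphatases that act on the C-terminal domain of RNA polymerase II. Host mRNAs were not measured here.

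The 5p arms carry the family's shared seed and decide which reads can be told apart, so they are shown first, from RefSeq on GRCm38.p6 with the seed in capitals.
miR-26b-5p: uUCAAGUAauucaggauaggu
miR-26a-5p, from Mir26a-1: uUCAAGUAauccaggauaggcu
miR-26a-5p, from Mir26a-2: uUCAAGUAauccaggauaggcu
Mir26a-1 and Mir26a-2 give the same 5p sequence of 22 bases. miR-26b-5p, with 21 bases, differed from it at 2 positions, U11C and U21C, written as the base of miR-26b-5p, the position from the 5′ end and the base of miR-26a-5p. Neither position lies in the seed. Among the 1738 mature entries of the RefSeq table, 3 genes carried the seed UCAAGUA at bases 2 to 8, and these were the 3 family members.

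The 3p arms tell the copies apart, and are shown for that reason, again with bases 2 to 8 in capitals.
miR-26b-3p: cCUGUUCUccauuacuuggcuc
miR-26a-1-3p: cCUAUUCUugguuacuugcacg
miR-26a-2-3p: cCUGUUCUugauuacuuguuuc
The 3p arms of Mir26a-1 and Mir26a-2 differed at 6 of 22 positions (A4G, G11A, C19U, A20U, C21U and G22C, with the base of miR-26a-1-3p first). At the first of these positions the difference falls within bases 2 to 8. miR-26b-3p and miR-26a-2-3p had the same bases 2 to 8 and differed at 4 positions in all, whereas miR-26b-3p and miR-26a-1-3p differed at 8. The same bases 2 to 8 were found in mature sequences of 2 genes outside the family, Mir6932 and Mir7039.

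The hairpins show how far the copies are alike outside the arms, and are given 5′ to 3′ with the mature arms in capitals. Their sequences were the same in GENCODE M21 and RefSeq.
Mir26b hairpin: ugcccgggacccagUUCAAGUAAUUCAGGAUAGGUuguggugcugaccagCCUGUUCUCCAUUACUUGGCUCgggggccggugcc
Mir26a-1 hairpin: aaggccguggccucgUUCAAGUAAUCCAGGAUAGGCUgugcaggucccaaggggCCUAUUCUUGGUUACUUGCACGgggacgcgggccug
Mir26a-2 hairpin: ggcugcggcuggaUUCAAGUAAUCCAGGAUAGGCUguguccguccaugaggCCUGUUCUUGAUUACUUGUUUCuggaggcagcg
In global alignments, Mir26a-1 and Mir26a-2 were identical over 72.5% of columns, Mir26b and Mir26a-1 over 68.8%, and Mir26b and Mir26a-2 over 66.0%. The longest stretch common to the Mir26a hairpins had 25 bases, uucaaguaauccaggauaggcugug, which is miR-26a-5p with 3 further bases at its 3′ end. Just before the 5p arm the hairpins had no base in common. Mir26b shared at most 11 bases in a row with Mir26a-1 and 10 with Mir26a-2. The predicted folding energies were -43.5 kcal/mol for Mir26b, -49.4 for Mir26a-1 and -44.5 for Mir26a-2. In each predicted fold 6 of the 7 seed bases were paired.

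All 3 hairpins lie on the plus strand of mm10, in an intron flanked by exons of the same lengths in each host. Mir26b (ENSMUSG00000065468.1, chromosome 1, 74394310 to 74394394) lies in intron 4 of 6 in the main Ctdsp1 transcript. Mir26a-1 (ENSMUSG00000065513.1, chromosome 9, 119031796 to 119031885) lies in intron 5 of 7 of Ctdspl. Mir26a-2 (ENSMUSG00000065430.1, chromosome 10, 126995530 to 126995613) lies in intron 5 of 7 of Ctdsp2. In every host the exon before this intron has 57 bases and the exon after it 93 bases. The introns themselves differ in length, with 564 bases in Ctdsp1, 3283 in Ctdspl and 1946 in Ctdsp2, and the host genes span 5777, 117546 and 21259 bases.

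**Figure D1:**
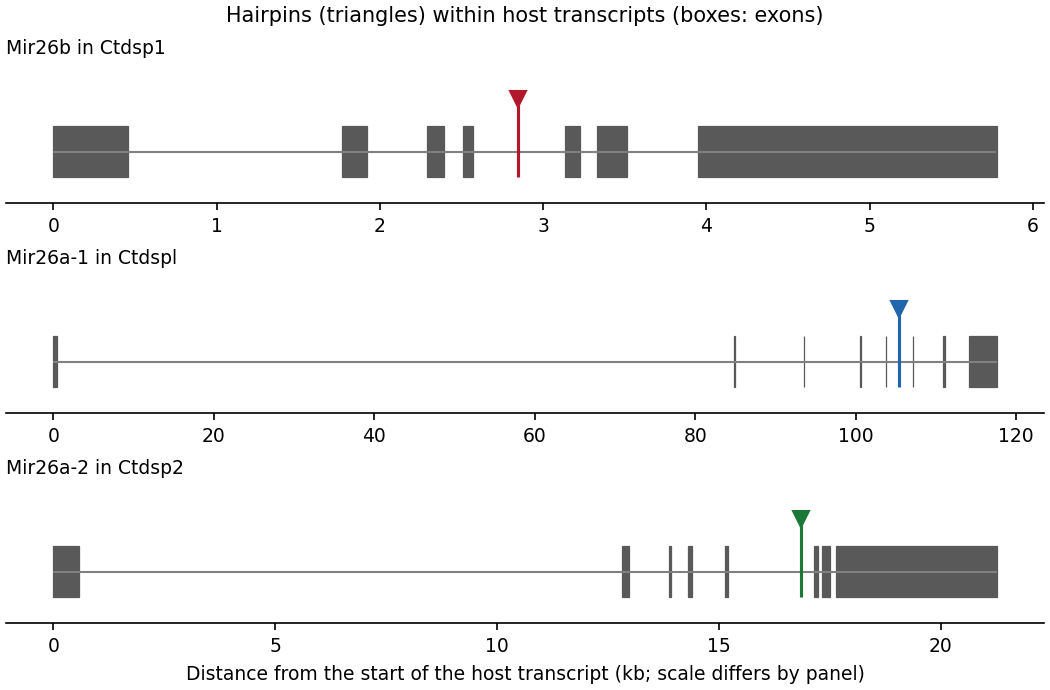
Position of each hairpin (coloured triangle and line) in the main transcript of its host, with exons as boxes and introns as a line, in kb from the transcript start and with a different scale in each panel. Mir26b sits in intron 4 of Ctdsp1, Mir26a-1 in intron 5 of Ctdspl and Mir26a-2 in intron 5 of Ctdsp2, each between an exon of 57 bases and an exon of 93 bases.

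The Mir26a-2 hairpin lies closest to another feature of its host. Exons of 2 other Ctdsp2 transcripts, Ctdsp2-201 and Ctdsp2-203, each overlap the hairpin by 1 base. A further annotated miRNA gene, Mir546, lies 2826 bases downstream within Ctdsp2 and had 0 counts in each library. No other miRNA gene was annotated within 10000 bases of a family member. No gene on the opposite strand overlapped any of the 3 hairpins.

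The libraries held 1491341 counts in miRNA genes in replicate 1 and 2028332 in replicate 2. The files put reads that aligned to several loci in a summary row and not in a gene row. That row held 5227800 reads in replicate 1 and 7067363 in replicate 2, or 3.51 and 3.48 such reads per gene count. Of 9 striated muscle miRNA genes, all had counts, and 8 reached 10 counts in each library. Their summed level was 55093 and 48416 CPM (counts scaled to a gene total of 1000000 per library). Mir206 alone gave 53367 and 46543 CPM of it. The neuronal genes of the Mir9 and Mir124a families had 1 count in each library and the hepatic gene Mir122 had 20 and 23. Every listed arm of the Mir9 genes occurred whole in the hairpin of another locus, and gene rows leave out reads at several loci. Low counts of the neuronal genes therefore do not show that neuronal miRNAs were absent.

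In the gene counts, which leave out reads that aligned to several loci, Mir26b was among the strongest signals, and its relatives stood far below it. Mir26b had 57960 counts in replicate 1 and 73540 in replicate 2, or 37560 ± 1844 CPM (SD, n = 2). It stood ninth of 2202 genes, at rank 9 in each library. It made up 3.89% of gene counts in replicate 1 (exact 95% binomial interval 3.86 to 3.92) and 3.63% in replicate 2 (3.6 to 3.65).

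Mir26a-1 had 163 counts in replicate 1 and 182 in replicate 2, or 99.5 ± 13.8 CPM, and ranked 160. Mir26a-2 had 131 counts in replicate 1 and 100 in replicate 2, or 68.6 ± 27.3 CPM, and ranked 180. In each library the order was Mir26b, Mir26a-1, Mir26a-2. The CPM ranges of the Mir26a genes did not overlap, 89.7 to 109 for Mir26a-1 against 49.3 to 87.8 for Mir26a-2, though the lowest Mir26a-1 value and the highest Mir26a-2 value were close. Relative to the mean, the SD was 4.91% for Mir26b, 13.9% for Mir26a-1 and 39.7% for Mir26a-2.

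**Figure D2:**
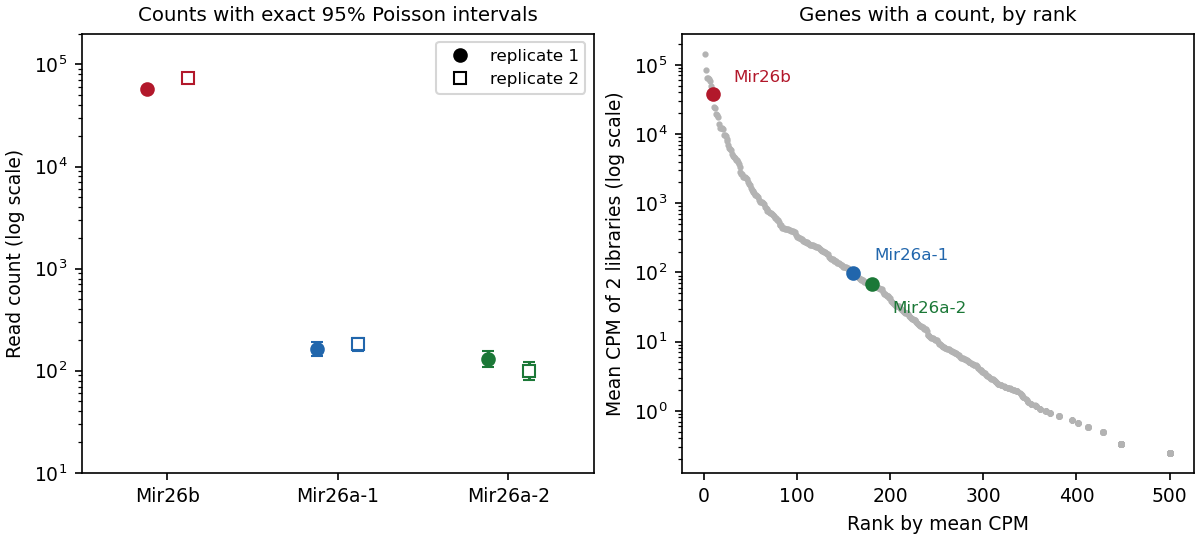
Left, read counts of the 3 genes in replicate 1 (filled circles) and replicate 2 (open squares) on a log scale, with exact 95% Poisson intervals. Right, mean CPM on a log scale against rank for genes with a count (grey), with the family members in colour: Mir26b at rank 9, Mir26a-1 at 160 and Mir26a-2 at 180.

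Within a library, depth and scaling cancel when 2 genes are set against each other. Mir26b exceeded Mir26a-1 by 356-fold in replicate 1 (exact 95% interval 305 to 417) and 404-fold in replicate 2 (349 to 470), a mean log2 ratio of 8.57 ± 0.13. It exceeded Mir26a-2 by 442-fold (373 to 529) and 735-fold (605 to 904), a mean log2 ratio of 9.16 ± 0.52. These folds describe reads placed at 1 locus, which leaves out reads that hold only the 5p sequence shared by the Mir26a genes. The Mir26a genes were far closer to each other. Mir26a-1 over Mir26a-2 was 1.24 in replicate 1 (0.983 to 1.58), an interval that includes equality, and 1.82 in replicate 2 (1.42 to 2.35), one that does not. The mean log2 ratio of this pair was 0.59 ± 0.39, and the intervals of the libraries overlapped.

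The gene rows of the 3 family members held 58254 counts in replicate 1 and 73822 in replicate 2, or 3.77 ± 0.189% of gene counts. Mir26b accounted for 99.50% of these in replicate 1 (exact 95% interval 99.43 to 99.55) and 99.62% in replicate 2 (99.57 to 99.66). These shares leave out reads that aligned to several loci. Together Mir26a-1 and Mir26a-2 had 294 and 282 counts. These intervals reflect the counting error of reads and nothing more. Because reads copied by PCR are not separate molecules, the intervals may be too narrow. The counts did not depend on strand: those on the strand of the gene equalled the counts without regard to strand, and the opposite strand held 0 counts for each gene in each library.

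Reads of the shared arm cannot be assigned to either Mir26a gene. Among the hairpins of all 2202 genes, searched on both strands, the whole miR-26a-5p sequence occurred at 2 loci, Mir26a-1 and Mir26a-2. Each of the other 4 mature sequences of the family occurred at 1 locus. Shorter leading stretches gave the same answer over most lengths. The first 10 bases of the 5p arms were found in all 3 family hairpins. From 11 bases on, miR-26b-5p was found in Mir26b alone, whereas miR-26a-5p was found in 2 hairpins at every length up to 22. The 3p arms were each at 1 locus from 13 bases on. From 16 bases on, no spliced transcript of a gene other than a miRNA gene held any of them. The rest of the genome was not searched here.

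**Figure D3:**
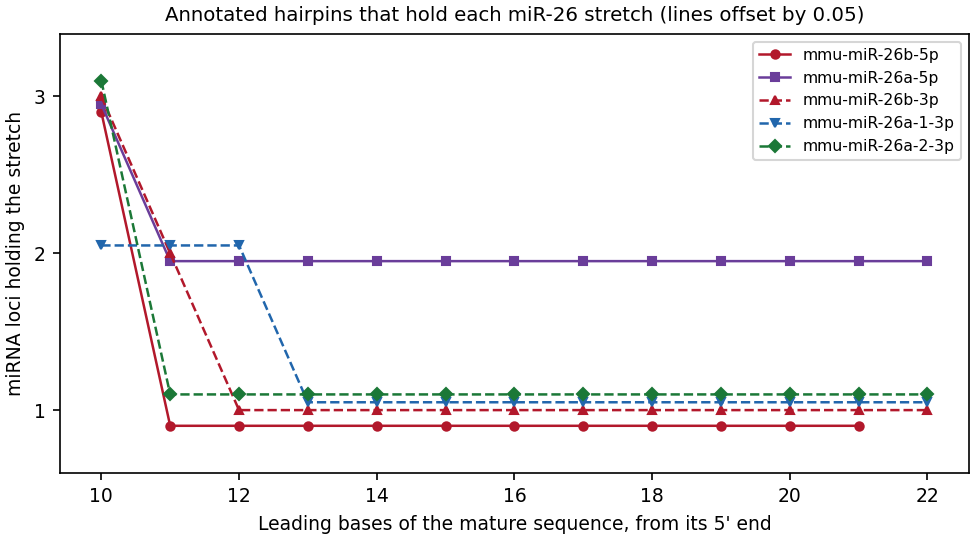
Number of annotated miRNA loci whose hairpin holds the leading stretch of each mature miR-26 sequence, against the length of the stretch in bases from the 5′ end, with lines offset slightly so that they do not hide each other. The miR-26a-5p line stays at 2 loci from 11 to 22 bases, and the others reach 1 locus by 13 bases.

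A reference-matching read counted for Mir26a-1 or Mir26a-2 therefore holds sequence outside the 25 bases common to them, such as the 3p arm or the loop. The files give no count per arm, and CAST alleles that differ from mm10 were not analysed here. The 99.5 and 68.6 CPM are thus no measure of miR-26a-5p, and lower output of the Mir26a hairpins cannot be told apart from miR-26a-5p reads left in the summary row. The fold differences against Mir26b and the shares of the family describe reads placed at 1 locus.

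The level of the Mir26a genes was set beside other genes of the same kind. Mature sequences were available for 1018 of the 2202 genes. In 61 of these, Mir26a-1 and Mir26a-2 included, 1 arm occurred whole in the hairpin of another locus and the other did not. This group had a median of 5.73 CPM, and 29 of its genes reached 10 counts in each library. Mir26a-1 ranked 16 and Mir26a-2 ranked 19 of the 61, so both stood in its upper part. In 907 genes, Mir26b included, no listed arm was shared. Only arms listed for a gene were tested, and 1 listed arm was enough for a gene to be included. A shared arm missing from the list was therefore not seen, so some of the 907 may be misplaced. Their median was 0 CPM, 205 reached 10 counts in each library, and Mir26b ranked 7 among them. Above 10000 CPM there were 0 of the 61 genes and 18 of the 907, too few to set the groups apart. Above 1000 CPM there were 3 of the 61 and 55 of the 907. Mir378a, the highest of all 2202 genes, had no matched mature sequence and is in no group. Where every listed arm was shared (50 genes) the median was 0 CPM and 4 genes reached 10 counts in each library. No test was made of these groups.

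**Figure D4:**
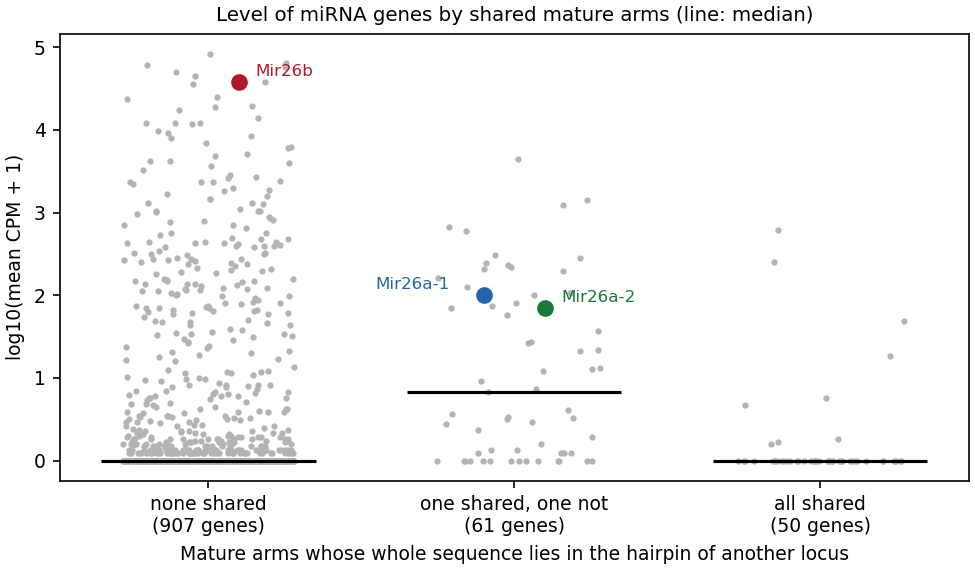
Mean CPM of 1018 miRNA genes on the scale log10(CPM + 1), with the median as a black line. Genes are grouped by how many of their listed mature arms occur in the hairpin of another locus. Mir26b stands at rank 7 of the 907 genes with no listed arm shared. Mir26a-1 and Mir26a-2 stand at ranks 16 and 19 of the 61 genes with 1 arm shared and the other not.

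Among the 969 miRNA genes that lie inside a protein-coding gene on the same strand, Mir26b ranked 5, Mir26a-1 62 and Mir26a-2 70. The 3 highest of these genes were Mir378a, Mir126a and Mir23b. Of the 969, 113 reached 10 counts in each library, or 11.7%, beside 12.5% of the other 1233 miRNA genes.

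In the order of levels, Mir26b stood below Mir206, a miRNA specific to skeletal muscle, and Mirlet7i, with ranges that did not overlap its own. Its range of 36256 to 38864 CPM overlapped that of Mir127, the imprinted gene next below it, at 33578 to 38398 CPM. The next gene down, Mir99a, was lower without overlap at 24757 ± 1824 CPM. Around Mir26a-1 the neighbours were Mir125b-2 and Mir1843a above and Mir374b and Mir193a below, from 105 ± 7.44 down to 98.1 ± 19.6 CPM. Around Mir26a-2 they were Mir412, Mir350, Mir378d and Mir188, from 69.1 ± 0.853 down to 64.8 ± 7.95 CPM. The ranges of all 8 overlapped that of their family member, so neither place in the order is fixed by these libraries.

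Between the libraries, counts scaled by the trimmed mean of M-values (TMM) gave ratios of replicate 1 over replicate 2 above 1 for all 3 genes, and 2 of them passed the test. Counts were compared gene by gene with a two-sided exact binomial test, with Benjamini-Hochberg adjustment over 313 genes with at least 10 summed counts. The test compares these libraries against counting error alone. It called 38.3% of the 313 genes in some direction, 18.5% as higher and 19.8% as lower in replicate 1, against 2 of the 3 family members, so a call alone sets no gene apart. The balance of directions depended on the scaling, with 58 genes higher and 62 lower here, 70 and 53 with DESeq2 size factors, and 68 and 53 with TMM over the genes with at least 10 summed counts.

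Mir26a-2 had the widest difference of the family, with a fold of 1.77 for replicate 1 over replicate 2 (exact 95% interval 1.35 to 2.32, log2 0.82, exact binomial test adjusted p = 7.24e-05). Its absolute log2 ratio was the 38th of 313, where the median was 0.30. Mir26b passed with a fold of 1.06 (1.05 to 1.08, log2 0.09, exact binomial test adjusted p = 4.35e-28). With its 57960 and 73540 counts even a small difference passes, and its size depended on the scaling. The log2 ratio was 0.10 with gene totals. It was 0.14 with DESeq2 size factors and with TMM over genes with at least 10 summed counts. The latter value lies outside the log2 interval of 0.07 to 0.11, which reflects counting error alone. Mir26a-1 had a fold of 1.21 (0.973 to 1.5, log2 0.27) and did not pass (adjusted p = 0.158, exact binomial test). None of the 3 passed once variation between the libraries, itself estimated from these 2 libraries, was allowed for (edgeR exact negative binomial test, adjusted p = 0.983 for Mir26a-2 and 1 for Mir26b and Mir26a-1). That a gene missed this test does not show that it was alike in both mice.

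Other cell type markers also differed between the libraries. The smooth muscle genes Mir143 and Mir145a together had 58854 CPM in replicate 1, against 78690 CPM in replicate 2. The red cell genes Mir451a and Mir144 summed to 174 and 355 CPM, and the endothelial gene Mir126a had 78275 and 87525 CPM. Each of these 5 genes passed the exact binomial test as lower in replicate 1. That test called 19.8% of the 313 genes lower and 18.5% higher there, and the edgeR exact negative binomial test called 0. Members of the leukocyte and striated muscle lists went both ways. Of the 4 leukocyte genes, at 2665 CPM in replicate 1 and 2294 CPM in replicate 2 in all, 2 passed as higher and 2 as lower in replicate 1. Of 8 striated muscle genes tested, 3 passed as higher and 2 as lower. Among gene counts, Mir206 made up nearly all of the striated muscle sum (53367 CPM in replicate 1, 46543 in replicate 2). The other 8 genes summed to 1726 and 1873 CPM. Reads that aligned to several loci are left out of these sums, which are therefore no measure of the mature miRNAs of the 8 genes. How many such reads came from striated muscle genes was not tested. The part of these markers in the differences of the miR-26 genes was not tested.

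**Figure D5:**
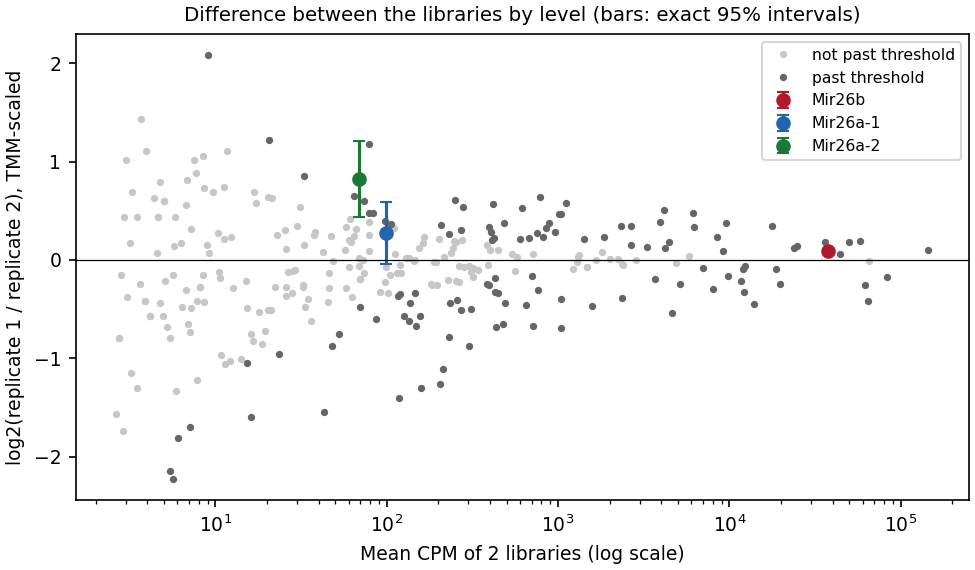
Log2 ratio of replicate 1 over replicate 2 after TMM scaling against mean CPM on a log scale for 313 genes, light grey where the gene did not pass the threshold and dark grey where it did. The family members are shown with exact 95% intervals, which for Mir26b (log2 0.09) are narrower than its symbol. Mir26a-2 stands at log2 0.82 and Mir26a-1 at log2 0.27.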

How the data were processed

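Small RNA libraries (size range below 30, per the labels) were analysed from the gastrocnemius of 2 male mice. The authors deposited raw counts of reads for each miRNA gene, on mm10 with GENCODE M21 per their descriptions of the files. No aligner, trimming or mismatch setting is given in the sources used here. Column 3, counts on the strand of the gene, was used. Library sizes exclude the summary rows, which held reads at several loci (69.8% of reads in replicate 1, 71.8% in replicate 2), reads without an alignment (8.11%, 5.99%) and reads in no miRNA gene (2.21%, 1.64%). CPM values were computed on the gene counts.

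Positions, introns and hairpins came from GENCODE M21, in which all 2202 identifiers were found, and mature sequences from RefSeq (GRCm38.p6), matched by symbol and position. Hairpins were folded with RNAfold 2.7.2 and aligned with Biopython 1.88. A genome sequence was not used here, so copies were counted among annotated hairpins and transcripts, with overlapping miRNA genes as 1 locus. Libraries were compared by exact binomial tests with TMM sizes (edgeR 4.0.16, R 4.3.3) at an adjusted p of 0.05, a step tested on simulated data. A single group offers a quasi-likelihood test no contrast. Spread between libraries was the edgeR common dispersion over 267 genes. DESeq2 1.42.0 size factors were an alternative. Levels, ratios and shares are means ± SD over 2 libraries. The genes named are the family members, the 2 genes directly above and below each in mean CPM, the 3 highest genes inside protein-coding genes, genes with the seed of miR-26a-5p, miRNA genes within 10000 bases and cell type markers. Mir6932 and Mir7039 were named after their sequences were seen. The members and lists were chosen with earlier results of these data known.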

Additional observations from a re-analysis of the deposited data

How the results depend on the processing

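Of 56 values recomputed under alternatives, 46 kept their direction, their side of the threshold or their size within the spread between libraries. Some of the 46 were fixed in advance. With 2 libraries, each always lies within 1 SD of their mean, so values with a library left out could not count as changed. Ratios between family members without regard to strand were fixed too, because those counts equal the counts on the strand of the gene. Scaled to all reads in place of gene counts, levels averaged 7602 for Mir26b, 20.1 for Mir26a-1 and 13.8 for Mir26a-2. The share of counts in the family gene rows was then 0.764% of reads. With counts taken without regard to strand, the total is smaller, and the levels were 50259, 133 and 91.8 CPM and the share 5.05%. The scaling by DESeq2 size factors or gene totals, the filter on low counts and a TMM scaling over genes with at least 10 summed counts, chosen after seeing the data, changed no call of a family member. The edgeR exact negative binomial test ended the calls of Mir26b (log2 0.09, adjusted p = 1) and Mir26a-2 (log2 0.82, adjusted p = 0.983). It called 0 of 313 genes where the binomial test called 120, and 15 had an unadjusted p under 0.05. The spread it uses comes from the same 2 libraries. In single libraries the levels ranged from 36256 to 38864 CPM for Mir26b, 89.7 to 109 for Mir26a-1 and 49.3 to 87.8 for Mir26a-2. At 16 to 21 leading bases miR-26a-5p remained the 1 family sequence found at several loci. With the first 18 bases, an alternative added after seeing the data, 136 genes had a listed mature arm that was shared, against 111 with whole sequences. Copies in the whole genome were not run. With about 100 to 200 counts, the Mir26a genes carry a counting error far wider than that of Mir26b. No paired analysis was possible because the design has 1 group.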
